A study of Mus musculus with 14 samples.

Results

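S100a9, Lcn2, Saa3 and Lrg1 are 4 genes of secreted antimicrobial and acute phase proteins, out of 10980 genes listed in the expression table of UV-irradiated mouse skin. They were picked by name, with their values over the whole time course already known. What follows on their own levels and fold changes is therefore a description, and no test is given for it. All 4 names were found in the table, each on 1 row, and no filter on low values removed any of them.

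Full thickness back skin of wild type C57BL/6 mice was depilated, exposed to a mixed source of ultraviolet (UV) light and sampled for RNA sequencing over 24 h. There were 2 libraries from skin labelled as untreated (0 h) and 12 from irradiated skin: 2 each at 0.5, 12 and 24 h, and 3 each at 2 and 6 h. Every group carries the same genotype, and every comparison uses the same pair of unirradiated libraries. No unirradiated library from a later time is analysed here, so time after depilation and time after UV cannot be told apart. No UV dose or age of the mice is given in the sources used here. Whether replicate libraries are from separate mice is not in the labels, so p-values measure only the spread between these samples, which may be technical. Values are FPKM, the number of sequenced fragments per kilobase of transcript scaled by how many fragments each library had mapped, as the authors deposited them.

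The libraries fall into 3 sets that differ in how their values were written, with at most 6 significant digits in set 1 and up to 17 in sets 2 and 3. Whether set 1 was quantified in the same way is not stated, so a level set side by side between set 1 and another set may differ for that reason too, which was not tested. Once the mean of each time was taken off, libraries of 1 set deviated together. Set 1 covers all 6 times, set 2 covers 0, 2, 6, 12 and 24 h, and set 3 covers 0.5, 2 and 6 h without an unirradiated library. Read numbers on the listed genes could be recovered in sets 2 and 3, at 12327907 to 15550419 per library, and are unknown in set 1. Genes of the lists below were compared with unirradiated skin by limma on log2(FPKM + 1), with the set as a term and Benjamini-Hochberg adjustment over all 10980 genes, and "rose" or "fell" means an adjusted p under 0.05 in that fit. In order of time from 0.5 h on, the fit called 11, 306, 474, 418 and 241 genes, of which 10, 281, 375, 355 and 205 fell. Without the set as a term, limma called 0 genes at each time, and in the same order there were 333, 660, 615, 494 and 352 genes at an unadjusted p under 0.05, so every call below rests on that term. Under quantile normalization, the share of called genes that rose was 27.4% at 2 h, 39.2% at 6 h and 31.9% at 12 h, against 8.17%, 20.9% and 15.1% in the values as deposited, and under median-of-ratios scaling it was 21.9%, 36.3% and 25.5%.

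All 4 proteins belong to the first line of defence that an injured barrier releases before adaptive immunity is engaged. S100a9 is a small calcium-binding protein that pairs with S100a8 as calprotectin, which starves microbes of zinc and manganese, and the pair is stored in neutrophils and switched on in stressed keratinocytes. Lcn2, lipocalin 2, captures the iron carriers (siderophores) of bacteria. Saa3 is the serum amyloid A made mainly outside the liver in mice, and Lrg1 is a secreted leucine-rich glycoprotein of the acute phase that modulates TGF-beta signalling in vessels. Their genes are known targets of interleukin 1, interleukin 6 and the interleukin 17 and 22 families, which act through the NF-kB, C/EBP and STAT3 transcription factors.

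The 4 genes lie on 4 chromosomes of the mouse build GRCm38 (mm10) in the GENCODE M21 annotation, all on the minus strand. S100a9 spans chr3:90692632-90695721, Lcn2 chr2:32384633-32388252, Saa3 chr7:46711998-46715700 and Lrg1 chr17:56119678-56122001, and none overlaps an exon of another gene. Because a read that fits several genes could be shared out among them, every 50-base stretch of their transcripts was searched for in the transcripts of all other genes. S100a9, Lcn2 and Lrg1 shared 0 such stretches, while Saa3 shared 93 of 2602 (3.57%), 9 of them with Saa1, Saa2 or Saa4. To that extent the level of Saa3 is uncertain.

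The stretch just before the start of a gene is where the transcription factors of this pathway can bind, so it is shown for S100a9, Saa3 and Lrg1, from RefSeq promoters of build GRCm38.p6, 5′ to 3′ on the minus strand. Capitals mark matches to the C/EBP motif TTNNGNAA on either strand. Shown are the bases of the 250 before the start that lie in no annotated exon, namely chr3:90695722-90695971, chr7:46715701-46715926 and chr17:56122002-56122196.
S100a9: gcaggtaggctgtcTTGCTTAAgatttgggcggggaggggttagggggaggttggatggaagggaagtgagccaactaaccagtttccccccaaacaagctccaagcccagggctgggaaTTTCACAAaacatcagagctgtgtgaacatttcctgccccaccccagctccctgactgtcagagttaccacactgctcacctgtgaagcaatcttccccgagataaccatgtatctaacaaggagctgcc
Saa3: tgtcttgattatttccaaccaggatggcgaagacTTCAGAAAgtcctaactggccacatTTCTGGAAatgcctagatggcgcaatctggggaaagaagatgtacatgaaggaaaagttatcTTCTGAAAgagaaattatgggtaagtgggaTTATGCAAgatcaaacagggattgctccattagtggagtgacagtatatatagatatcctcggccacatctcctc
Lrg1: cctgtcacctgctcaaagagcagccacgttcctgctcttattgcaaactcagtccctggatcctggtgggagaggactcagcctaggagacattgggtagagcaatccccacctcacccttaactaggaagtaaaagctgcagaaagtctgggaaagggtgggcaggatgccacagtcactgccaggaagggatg
S100a9 held the C/EBP match TTGCTTAA at 236 to 229 bases before its start and TTTCACAA at 130 to 123. Saa3 held 4 matches, of which TTATGCAA, at 99 to 92 bases before the start, was the nearest. Lrg1 held none in its 250 bases, and Lcn2, whose stretch overlaps exons of other transcripts and is not printed, held TTGCTCAA at 216 to 209. So 3 of 4 genes held a C/EBP match, in a background of 36.9% of 27025 promoters of that length, and no match overlapped another motif searched. The NF-kB motif was in 0 of 4 members and 3.75% of promoters, the STAT motif TTCNNNGAA in 0 of 4 and 7.18%, and the AP-1 motif TGANTCA in 0 of 4 and 6.87%, each searched on both strands. A match is a run of letters and not evidence of binding.

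S100a9 had a low level in unirradiated skin and a high one from 12 h on. In unirradiated skin its level was 7.17 FPKM in set 1 and 2.95 FPKM in set 2, the latter from 21 reads. At 0.5 h it was 3.34 FPKM in set 1 and 3.58 in set 3. For sets 1, 2 and 3 in turn it was 14.4, 1.48 and 2.89 FPKM at 2 h, and 15.9, 4.49 and 8.55 FPKM at 6 h. Up to 6 h the groups overlapped with the unirradiated pair, and set 1 was the highest of the 3 sets at 2 and 6 h. At 12 h the level was 112 FPKM in set 1 and 37.5 in set 2, and at 24 h it was 153 and 117. Every library of these last 2 times lay above every earlier one. The 12 h values exceeded those of 93.3% and 81.1% of all listed genes in sets 1 and 2, where the unirradiated values had exceeded 24.9% and 3.6%.

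In FPKM, the 24 h level of S100a9 was 21.3 times the unirradiated level in set 1 and 39.5 times in set 2. The counting interval of the set 2 ratio, from its reads alone, was 25.7 to 64.2 (exact binomial, 95%). At 12 h the ratios were 15.7 and 12.7. On the log2(FPKM + 1) scale the differences were 3.54 ± 0.44 (SE) at 12 h and 4.57 ± 0.44 at 24 h, and at the 3 earlier times they lay between -0.67 and 0.77. Without the 24 h library of set 1 the 24 h difference was 5.17, and without that of set 2 it was 3.96. The mean levels were 74.9 ± 52.9 FPKM (SD, n = 2) at 12 h and 135 ± 25.8 FPKM (SD, n = 2) at 24 h. These overlapped within SDs that also hold the difference between sets. Within each set the level was higher at 24 h, at 153 against 112 FPKM in set 1 and 117 against 37.5 in set 2. The set 2 counting intervals were 109 to 125 and 33.1 to 42.4, from 1 library per time. Earlier means also overlapped within SDs of up to 7.10, in the order 3.46 at 0.5 h, 5.06 at 0 h, 6.26 at 2 h and 9.64 FPKM at 6 h.

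**Figure D1:**
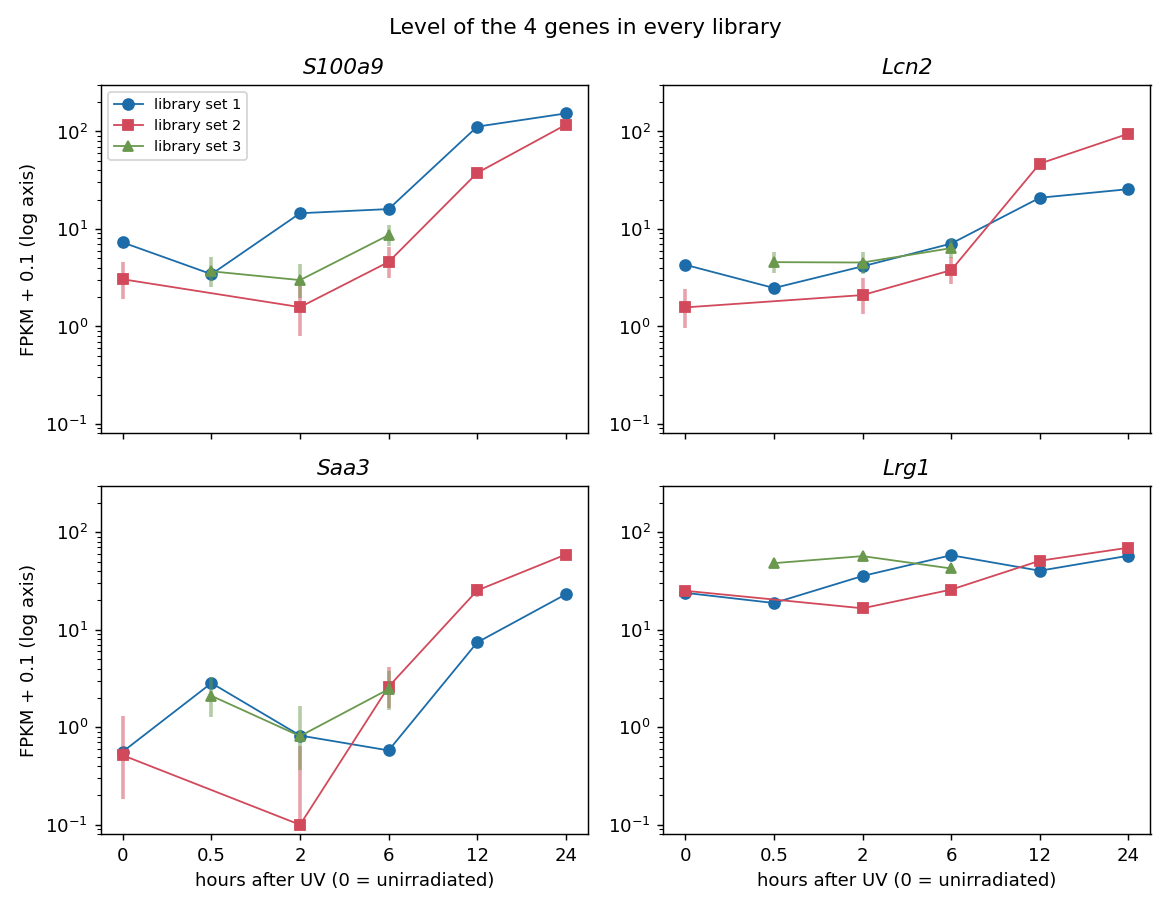
Level of S100a9, Lcn2, Saa3 and Lrg1 in each of the 14 libraries, as FPKM + 0.1 on a log axis, against hours after UV, with 1 line and marker per library set. The 12 and 24 h points of all 4 genes lie above their unirradiated points, and the step is far smaller for Lrg1 than for the others.

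Lcn2 was the member whose change over the day differed most between sets. Its unirradiated level was 4.19 FPKM in set 1 and 1.47 FPKM in set 2, from 17 reads. At 0.5 h it was at 2.38 FPKM in set 1 and 4.47 in set 3, and at 2 h at 4.04, 2.00 and 4.43 in sets 1, 2 and 3. These early libraries lay within or just above the range of the unirradiated pair. At 6 h the levels were 6.98, 3.68 and 6.26 FPKM in sets 1, 2 and 3. Set 2 at 6 h lay below the unirradiated library of set 1, so the groups overlapped at this time.

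At 12 h Lcn2 stood at 20.8 FPKM in set 1 and 46.7 in set 2, and at 24 h at 25.5 and 94.7. The order of the sets was thus the reverse of that in unirradiated skin, where set 1 was higher. The 24 h level was 6.08 times the unirradiated one in set 1 and 64.5 times in set 2, where the counting interval was 40.1 to 111. On the log2(FPKM + 1) scale the differences were 3.17 ± 0.59 (SE) at 12 h and 3.81 ± 0.59 at 24 h. Leaving out the 24 h library of set 2 gave 2.73 at 24 h and leaving out that of set 1 gave 4.90. For 12 h, leaving out the unirradiated library of set 2 gave 2.45 and leaving out that of set 1 gave 3.90. The means at 12 h, 33.8 ± 18.3 FPKM (SD, n = 2), and at 24 h, 60.1 ± 48.9 (SD, n = 2), overlapped within SDs that also hold the difference between sets. Within each set Lcn2 was higher at 24 h than at 12 h, with 1 library per time. The means between 0 and 6 h, which lay between 2.83 and 5.64 FPKM, overlapped within their SDs too.

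Saa3 started from almost nothing. It was at 0.463 FPKM in set 1 and 0.416 in set 2 in unirradiated skin, the latter from 3 reads. At 2 h it was listed at 0 in set 2, where 0 reads allow up to 0.437 FPKM (3 reads), and at 0.723 and 0.712 FPKM in sets 1 and 3. At 0.5 h it was at 2.74 FPKM in set 1 and 2.00 in set 3, from 17 reads, above both unirradiated libraries. That early gap rested on few reads and was not there at 2 h. At 6 h the levels were 0.479, 2.51 and 2.36 FPKM in sets 1, 2 and 3, with set 1 barely above its unirradiated value and the others higher.

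By 12 h Saa3 had reached 7.32 FPKM in set 1 and 25.2 in set 2, and by 24 h it had reached 23.0 and 59.0. Each set was higher at 24 h than at 12 h. The 24 h ratio to unirradiated skin was 49.6 in set 1 and 142 in set 2, and since the set 2 baseline is 3 reads its counting interval ran from 48.2 to 691. The differences on the log2(FPKM + 1) scale were 3.36 ± 0.52 (SE) at 12 h and 4.72 ± 0.52 at 24 h, and a pseudocount of 0.1 gave 4.67 and 6.10. Without the 12 h library of set 2 the first was 2.71, and without that of set 1 it was 4.01. Mean levels in ascending order were 0.439 ± 0.0333 FPKM (SD, n = 2) in unirradiated skin and then 0.478, 1.78, 2.37, 16.3 and 41.0 FPKM at 2, 6, 0.5, 12 and 24 h, the last with an SD of 25.5. Among neighbours in this order, only 0.5 and 12 h differed beyond their SDs, which also hold the difference between sets.

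Lrg1 behaved differently from the other members in level and in size of change. In unirradiated skin it was already at 23.8 FPKM in set 1 and 25.0 in set 2, above 65.8% and 71.1% of listed genes. At 0.5 h the levels were 18.7 FPKM in set 1 and 48.1 in set 3, and at 2 h they were 35.5, 16.5 and 56.8 in sets 1, 2 and 3. Set 3 was high from its first library on, and set 2 at 2 h was the lowest library of all. At 6 h the levels were 58.0, 25.7 and 42.4 FPKM, each above both unirradiated values, though for set 2 only just.

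At 12 h Lrg1 was at 40.2 FPKM in set 1 and 50.9 in set 2, and at 24 h at 57.3 and 69.3. These libraries did not overlap with unirradiated skin, but several of the earlier libraries of sets 1 and 3 reached the same range. Its 24 h level was 2.41 times the unirradiated one in set 1 and 2.77 times in set 2 (counting interval 2.49 to 3.09). The log2(FPKM + 1) differences were 0.86 ± 0.41 (SE) at 12 h and 1.33 ± 0.41 at 24 h. Means increased in the order of time from 24.4 ± 0.861 FPKM (SD, n = 2) at 0 h to 63.3 ± 8.52 (SD, n = 2) at 24 h, but those of 0.5, 2, 6 and 12 h, 33.4 to 45.6 FPKM, did not differ from each other beyond SDs of 7.61 to 20.8. The step from 0 to 0.5 h was within these SDs too, and that from 12 to 24 h was just beyond them. All of these SDs also hold the difference between sets.

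**Figure D2:**
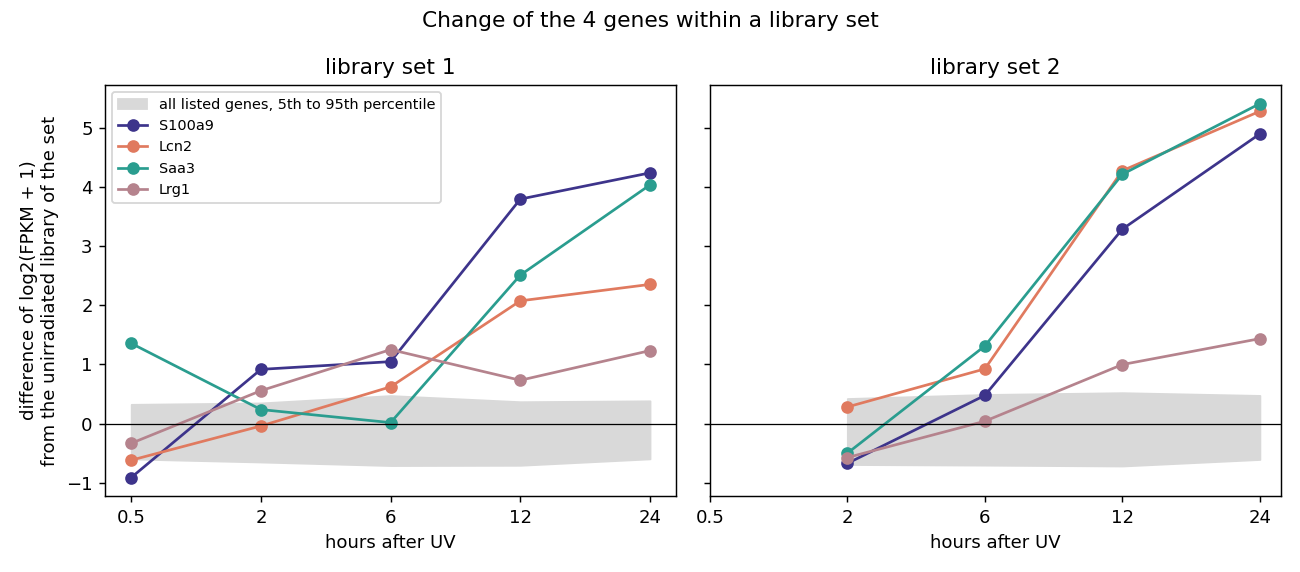
Difference of log2(FPKM + 1) from the unirradiated library of the same set, for the 4 genes in set 1 and set 2, against hours after UV, over a grey band from the 5th to the 95th percentile of all listed genes. S100a9, Lcn2 and Saa3 lie above the band at 12 and 24 h in both sets, at 2.07 to 5.41.

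By 12 h the members had reached unequal shares of their 24 h level. S100a9 stood at 73.4% of its 24 h FPKM in set 1 and 32.2% in set 2. Lcn2 stood at 81.8% and 49.3%. For Saa3 the shares were 31.9% and 42.8%, and for Lrg1 70.1% and 73.5%. Of the 4, Lrg1 had the most similar shares in both sets. Among the other 3 the share of Lcn2 was the highest in both sets, and the order of S100a9 and Saa3 differed between them, with 1 library per set and time.

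Ranked among all 10980 listed genes by the 24 h difference within a set, Saa3 ranked 5 in set 1 and 3 in set 2. S100a9 ranked 4 and 5, Lcn2 20 and 4, and Lrg1 61 and 78, in sets 1 and 2. No limma call is given for the members, because they were picked with these values known. Every library lay above both unirradiated ones for 1 member at 0.5 h (Saa3), 0 at 2 h, 2 at 6 h (Saa3 and Lrg1) and all 4 at 12 and 24 h, against 18.7%, 4.10%, 6.72%, 10.6% and 11.7% of all genes at these times. Since these values chose the members, nothing is read from these counts.

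S100a8, the partner of S100a9 in calprotectin, is the nearest of the antimicrobial genes in position and in function, with 22596 bases between the 2 genes on chromosome 3. Its level was 27.4 FPKM in set 1 and 5.82 in set 2 in unirradiated skin, 160.0 and 27.2 at 12 h, and 212 and 81.9 at 24 h. Set 1 was the higher at each of these times, and both sets were higher at 12 and 24 h than at any earlier time. S100a8 rose by 2.27 ± 0.23 (SE, log2) at 12 h, with a limma adjusted p of 0.00165, and by 3.25 ± 0.23 at 24 h, with an adjusted p of 1.7e-04. Both calls were kept in 14 of 14 fits that left out 1 library, and were lost without the set as a term (limma adjusted p = 1.0 and 0.988).

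In sets 1 and 2, which reach 24 h, the level of S100a9 relative to S100a8 was higher at 12 and 24 h than at any earlier time. Their FPKM ratio in set 1 was 0.262 in unirradiated skin and, in order of time after UV, 0.103, 0.432, 0.519, 0.702 and 0.721. S100a9 was thus the lower of the pair in every library of set 1. In set 2 the ratio was 0.507 in unirradiated skin, 0.214 at 2 h and 0.623 at 6 h, with counting intervals of 0.277 to 0.911, 0.0945 to 0.442 and 0.371 to 1.04 (exact binomial on the reads of both genes). It was 1.38 at 12 h, with an interval of 1.12 to 1.71, and 1.42 at 24 h, with 1.26 to 1.60. Set 3 gave 0.449, 0.579 and 1.08 at 0.5, 2 and 6 h, from 24 to 68 reads of S100a9. Within set 2, with 1 library per time, the late intervals lay above the early ones, while the early intervals were wide. They cover counting error only and hold no spread between samples. Among the other S100 genes listed, 10 did not pass at 24 h, and S100a4 alone fell at 12 h.

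**Figure D3:**
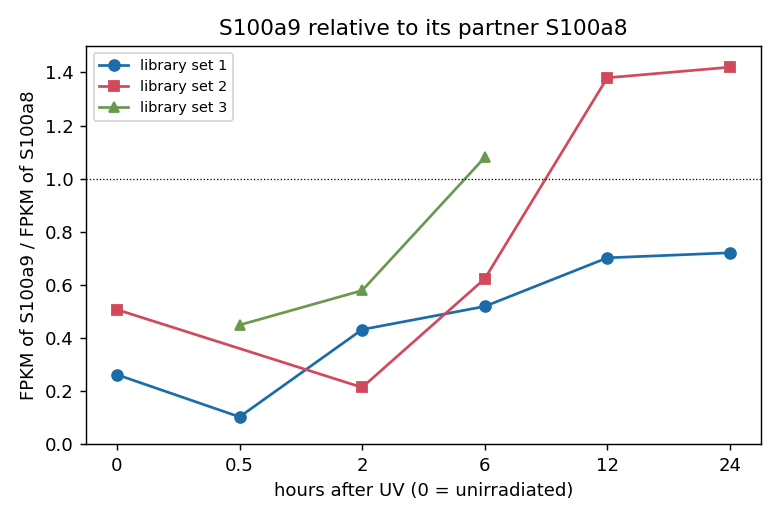
FPKM of S100a9 divided by FPKM of S100a8 in each library, against hours after UV, with 1 line per library set and a dotted line at equal levels. Sets 1 and 2 are higher at 12 and 24 h than at 0 h. Set 2 lies above set 1 at 0, 12 and 24 h and below it at 2 h, and at 6 h they are close, at 0.519 in set 1 and 0.623 in set 2.

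Which genes follow the same course was asked over the 14 libraries by Pearson's r of log2(FPKM + 1), after the mean of each set was taken off. These r describe points that share sets, depth and unirradiated libraries, and carry no p. Slpi was nearest to S100a9 (r = 0.984), followed by S100a8 (0.953) and Lce3b (0.934), which encodes a late cornified envelope protein. Nearest to Lcn2 were Porcn (0.937), an enzyme that lipid-modifies Wnt proteins, Slpi (0.937) and the chemokine Cxcl13 (0.936). For Saa3 the nearest were Qpctl (0.940), a glutaminyl cyclase, S100a8 (0.939) and Syt8 (0.913), and for Lrg1 they were Ifitm3 (0.946), an interferon-induced membrane protein, Hp (0.924) and the transcription factor Snai1 (0.913). Between members r was 0.948 for S100a9 with Lcn2, 0.924 for Lcn2 with Saa3 and 0.893 for S100a9 with Saa3, and 0.708 to 0.846 for the 3 pairs with Lrg1.

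The other antimicrobial proteins moved in both directions. Of 30 on the list 18 were measured and the other 12 were not analysed here. At 12 h 2 rose and 3 fell, and at 24 h 3 rose and 1 fell. The median difference at 24 h was 0.01 (log2), against 0.02 for all genes. In the same comparisons limma called 0.574% and 0.328% of all genes higher and 3.23% and 1.87% lower.

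Slpi, a secreted inhibitor of neutrophil elastase that also kills microbes, had the course of S100a9 at a lower level. It was at 1.75 FPKM in set 1 and 0.420 in set 2 in unirradiated skin, 10.3 and 4.52 at 12 h, and 15.5 and 15.2 at 24 h. It rose by 2.00 ± 0.29 (SE, log2) at 12 h (limma adjusted p = 0.0064) and by 3.05 ± 0.29 at 24 h (limma adjusted p = 8.9e-04). The 24 h call was kept in 14 of 14 fits without 1 library. That at 12 h was lost when the set 2 library from unirradiated skin (adjusted p = 0.0666) or the set 1 library from 12 h (0.0921) was left out, and with a pseudocount of 0.1 (0.0764). Pglyrp3, a peptidoglycan recognition protein of the epidermis, rose by 1.20 ± 0.23 at 24 h (limma adjusted p = 0.0251), from 2.14 and 3.05 FPKM to 6.92 and 7.47 in sets 1 and 2. Its call was lost without any 1 of the 0 and 24 h libraries, at adjusted p of 0.0918 to 0.215, and at 0.0708 with a pseudocount of 0.1.

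Those that fell included the abundant Defb6, while the 2 most abundant genes of the list, S100a6 and S100a14, passed at no time. Defb6, a beta-defensin, went from 1251 FPKM in set 1 and 261 in set 2 to 519 and 90.8 at 12 h. It fell by 1.39 ± 0.31 (SE, log2; limma adjusted p = 0.0377). Lyz2, the lysozyme of macrophages, fell by 1.38 ± 0.29 at 12 h (limma adjusted p = 0.0276), and S100a4 fell by 1.38 ± 0.30 (limma adjusted p = 0.0319). Lyz2 already differed by -1.06 ± 0.31 at 0.5 h, which did not pass (limma adjusted p = 0.277). The call of S100a4 was not followed in the other fits. Wfdc21 went from 144 to 36.9 FPKM in set 1 by 24 h, was lower in set 2 as well, and fell by 1.57 ± 0.28 (limma adjusted p = 0.0198). Calls for Defb6, Lyz2 and Wfdc21 were lost without any 1 library of the 2 times compared, and for Defb6 also without the 2 h library of set 1, at adjusted p of 0.0536 to 0.32. At 2 and 6 h the 1 gene of the list called was Pglyrp4, a second peptidoglycan recognition protein, which fell by 1.08 and 1.04 (limma adjusted p = 0.0474 and 0.0437), and each call was kept in 4 of 14 fits without 1 library.

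Of 34 acute phase genes 14 were measured and the other 20 were not analysed here. At 24 h 1 rose and 0 fell, at 2 h 0 rose and 1 fell, and 0 passed at the other times. The median difference at 24 h was 0.42 (log2), against 0.02 for all genes, and 10 of 14 were higher. Timp1, an inhibitor of matrix metalloproteinases, was at 2.26 FPKM in set 1 and 4.88 in set 2 in unirradiated skin and at 11.0 and 37.0 at 24 h. It rose by 2.29 ± 0.35 (SE, log2) with a limma adjusted p of 0.00885, and the call was lost without either unirradiated library or the 24 h library of set 2, at adjusted p of 0.0592 to 0.0903. The complement gene C4b fell by 0.94 ± 0.17 at 2 h (limma adjusted p = 0.025), kept in 11 of 14 fits without 1 library and lost when set 2 lacked its unirradiated or 2 h library or set 3 its 2 h library, at adjusted p of 0.0608 to 0.21. C4b already differed by -1.14 ± 0.20 at 0.5 h, which did not pass (limma adjusted p = 0.0776). Hp, which encodes the hemoglobin scavenger haptoglobin, was at 76.3 and 134 FPKM in unirradiated skin and at 263 and 300.2 at 24 h, a difference of 1.46 ± 0.38 that did not pass (limma adjusted p = 0.0935).

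**Figure D4:**
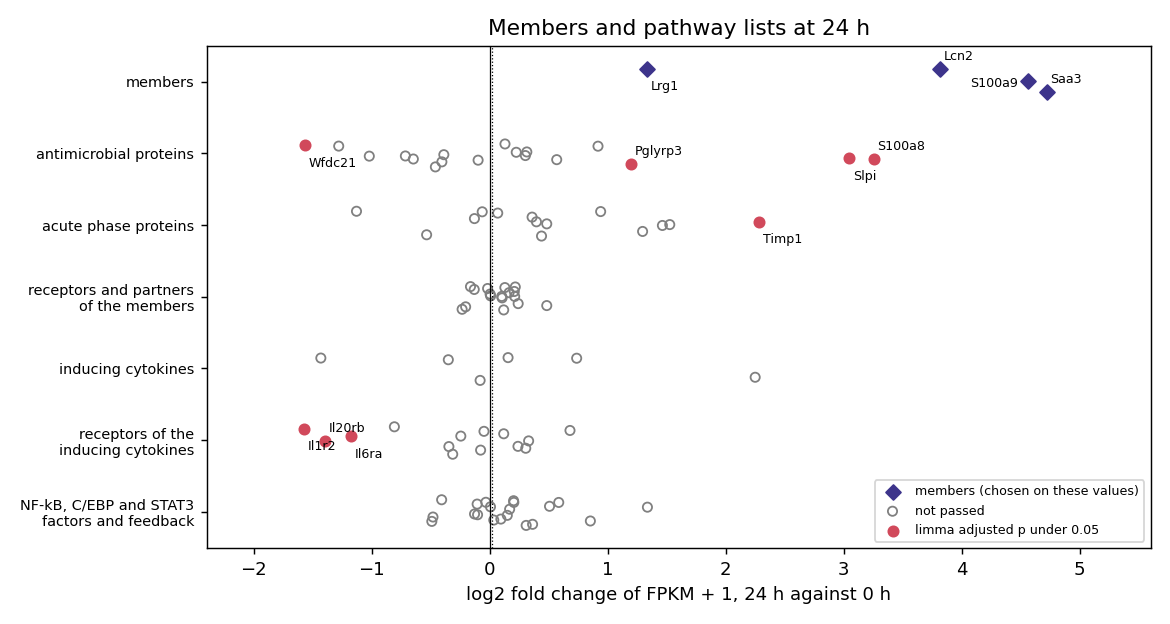
Log2 difference of FPKM + 1 between 24 h and unirradiated skin for the 4 members and for each measured gene of the 6 pathway lists, 1 row of points per list, with filled points for a limma adjusted p under 0.05. S100a9, Lcn2 and Saa3 lie between 3.81 and 4.72, to the right of every list gene, of which S100a8 is the nearest at 3.25.

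Receptors and partners of the 4 proteins were next. Of 24 on the list 17 were measured, 0 passed at 0.5, 12 and 24 h, and the early times gave 1 rise and 1 fall at 2 h and 1 rise at 6 h. Ager, which encodes the receptor RAGE that binds S100 proteins, was at 2.29 FPKM in set 1 and 2.25 in set 2 in unirradiated skin. It was at 5.27, 5.42 and 2.15 FPKM in sets 1, 2 and 3 at 2 h and at 9.75, 6.83 and 3.99 at 6 h, and back at 2.65 and 2.33 in sets 1 and 2 at 12 h. Its level was highest at 6 h in every set, though 6 h is the last time of set 3. In sets 1 and 2, with 1 library each per time, this came before the S100 genes reached their late levels. Ager rose by 0.87 ± 0.19 (SE, log2) at 2 h (limma adjusted p = 0.0416) and by 1.45 ± 0.19 at 6 h (limma adjusted p = 0.00769). The 2 h call was kept in 4 of 14 fits without 1 library, and the 6 h call in 11, being lost without either unirradiated library or the 6 h library of set 2 at adjusted p of 0.0522 to 0.0726. The gene of the TGF-beta receptor Tgfbr2 fell by 0.85 ± 0.18 at 2 h (limma adjusted p = 0.041), in 5 of 14 such fits. Slc22a17, a proposed receptor of Lcn2, was at 5.90 to 11.6 FPKM in all 14 libraries and passed at no time.

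Of 24 on the list of inducing cytokines 6 were measured, namely Il1a, Il1b, Il18, Il33, Csf1 and Ctf1, and none of these rose at any time. The other 18 were not analysed here. Of the interleukins named above as inducers, only interleukin 1 was among the 6, so whether the others changed is not known. Csf1, the growth factor of macrophages, fell by 1.06 ± 0.18 (SE, log2) at 2 h (limma adjusted p = 0.0184) and by 0.92 ± 0.18 at 6 h (limma adjusted p = 0.0262), each call kept in 11 of 14 fits and lost without either unirradiated library or the set 2 library of that time, at adjusted p of 0.0523 to 0.227. Csf1 already differed by -0.99 ± 0.21 at 0.5 h, which did not pass (limma adjusted p = 0.141). Il1b, interleukin 1 beta, split the sets in the late libraries. It was at 1.85 FPKM at 12 h and 1.99 at 24 h in set 1, against 15.4 and 31.1 in set 2, from 1.32 and 0.832 in unirradiated skin. Its 24 h difference of 2.25 ± 0.88 did not pass (limma adjusted p = 0.325). Lcn2, Saa3 and, by a smaller margin, Lrg1 were also higher in set 2 than in set 1 at those times, and S100a9 was not. These are levels of 1 library per set and time, and any link of the members to Il1b was not tested.

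A minority of the receptors of those cytokines fell and none rose. Of 17 on the list 14 were measured, and 0, 3, 3, 4 and 3 of these fell at the 5 times after UV, while the other 10 or more did not pass at any 1 time. Limma called 2.56%, 3.42%, 3.23% and 1.87% of all genes lower from 2 h on. Il6ra, the receptor chain that binds interleukin 6, was at 12.5 and 10.7 FPKM in unirradiated skin and at 2.32 to 5.36 FPKM in all 12 irradiated libraries. From 2 h on it fell by 1.51 ± 0.23, 1.31 ± 0.23, 1.40 ± 0.25 and 1.18 ± 0.25 (SE, log2) at the 4 times in turn, with limma adjusted p of 0.0157, 0.0204, 0.013 and 0.0367. Il6ra already differed by -1.25 ± 0.27 at 0.5 h, which did not pass (limma adjusted p = 0.147). Il20rb, a chain of the receptors of interleukins 19, 20 and 24, fell by 1.28 ± 0.27 at 6 h, 1.46 ± 0.29 at 12 h and 1.39 ± 0.29 at 24 h (limma adjusted p = 0.0319, 0.0223 and 0.0349). Il1r2, the decoy receptor of interleukin 1, fell by 1.27 ± 0.23 at 12 h and 1.57 ± 0.23 at 24 h (limma adjusted p = 0.0147 and 0.00749). The other falls were those of Il6st and Il10rb at 2 h, Il10rb at 6 h and Il22ra1 at 12 h. Each fall of this list was lost without 1 or both unirradiated libraries, at adjusted p of up to 0.331 for Il6ra, 0.376 for Il20rb and 0.146 for Il1r2 over all fits without 1 library, and Il6ra was called in 12, 10, 12 and 6 of 14 such fits at the 4 times.

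Among the transcription factors of the pathway, 3 genes of the C/EBP family changed, at different times. Of 22 NF-kB, C/EBP and STAT3 factors and their feedback genes 20 were measured, with 3 falls at 2 h, 1 rise at 6 h, 1 rise at 12 h and 0 passing at 0.5 and 24 h. Cebpd was at 5.26 and 4.27 FPKM in unirradiated skin. It was at 11.7, 10.9 and 35.5 FPKM in sets 1, 2 and 3 at 2 h, at 14.3, 24.3 and 30.6 at 6 h, and at 5.91 to 13.8 at 12 and 24 h. It was above both unirradiated libraries in all 12 irradiated ones. Cebpd rose by 1.69 ± 0.33 (SE, log2) at 6 h (limma adjusted p = 0.0241), a call lost without either unirradiated library or the 6 h library of set 2, at adjusted p of 0.0528 to 0.237. Cebpb rose by 0.66 ± 0.15 at 12 h (limma adjusted p = 0.0379) in 4 of 14 fits without 1 library. Cebpg fell by 0.83 ± 0.11 at 2 h (limma adjusted p = 0.00892), lost without either unirradiated library at 0.0618 and 0.0657. Pias3 and Nfkb1 fell by 0.55 and 0.47 at 2 h (limma adjusted p = 0.0488 and 0.0474), each in 2 of 14 such fits, and Stat3 itself passed at no time.

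**Figure D5:**
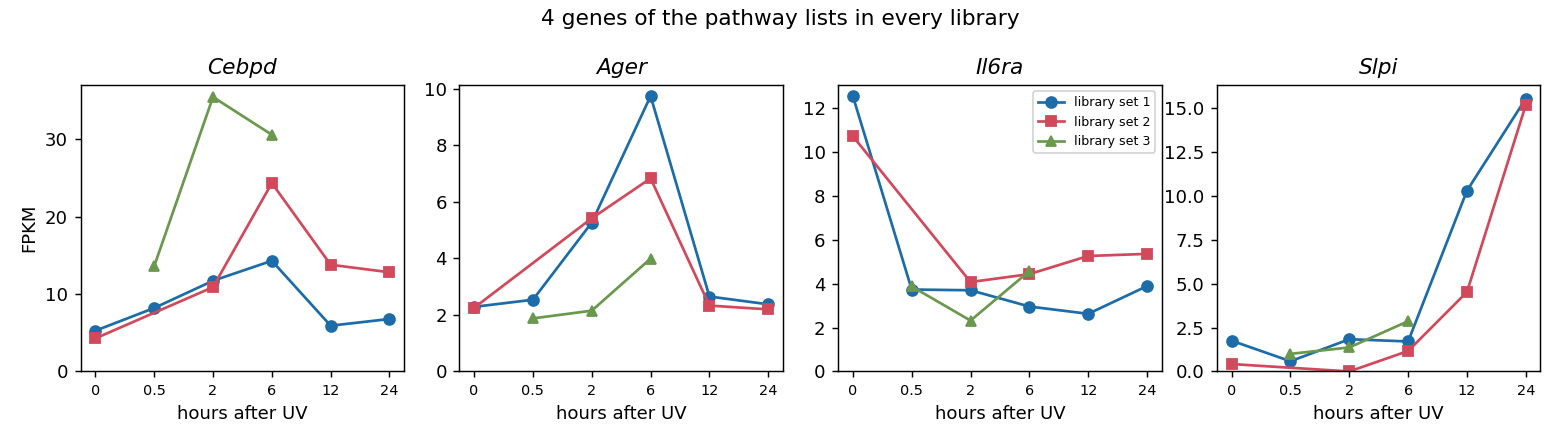
FPKM of Cebpd, Ager, Il6ra and Slpi in every library against hours after UV, with 1 line per library set and each axis starting at 0. Ager and Cebpd are highest at 2 or 6 h, Il6ra is lower in every irradiated library than in both unirradiated ones, and Slpi is highest at 24 h in sets 1 and 2.

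Over all 6 lists, 89 of 151 genes were measured and the other 62 were not analysed here. Their rises numbered 0, 1, 2, 3 and 4 at the 5 times after UV, and their falls 0, 10, 5, 7 and 4. Of all genes, limma called 0.00911%, 0.228%, 0.902%, 0.574% and 0.328% higher and 0.0911%, 2.56%, 3.42%, 3.23% and 1.87% lower at these times. The time of a first call does not date the start of a change. At 0.5 h, where 0 list genes passed, 18 of the 89 were higher, and the median difference was -0.24 (log2) against -0.01 for all genes. Another scaling of the values also ended calls: the 2 h falls of Tgfbr2, Il6st, Il10rb, Pglyrp4, Pias3 and Nfkb1 were lost under median-of-ratios scaling and under quantile normalization, and those of C4b at 2 h and of Csf1 at 2 and 6 h under quantile normalization. The 6 h fall of Pglyrp4 was lost under median-of-ratios scaling, with a pseudocount of 0.1 and with a filter at a mean FPKM of 5, and the 24 h fall of Il6ra with a pseudocount of 0.1 (limma adjusted p = 0.0601).

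Several of the 4 proteins are made both by skin cells and by immune cells, and in bulk tissue fewer cells of a type and less RNA per cell cannot be told apart. Of 30 neutrophil markers 8 were measured, and those that define the cell best, such as Ly6g, Mpo, Elane, Cxcr2 and Csf3r, were not analysed here. The summed level of the 8 was 95.4 to 223 FPKM at 0 h, 126 to 421 at 12 h and 176 to 822 at 24 h. Only S100a8, which stands in both lists, rose among them, and Il1r2 fell. In set 1 the sum came mostly from S100a8 and from Stfa1, Stfa2 and Stfa3, near-identical copies whose values are uncertain: at 24 h, Stfa3 stood at 383 FPKM in set 1 but 10.3 in set 2. The part of neutrophils in the levels of the members was not tested.

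Of 8 neutrophil-attracting chemokines 2 were measured, Cxcl1 and Cxcl2, and neither passed at any time. Their summed level was 0.270 to 0.388 FPKM at 0 h, and 2.11 FPKM in set 1 against 56.4 in set 2 at 24 h. Stressed keratinocyte markers, the keratins and cornified envelope genes of injured epidermis, were measured for 12 of 14, several of them near-identical copies, and 7 rose at 12 h and 8 at 24 h, with a median difference of 2.77 (log2) against 0.02 for all genes. Their summed level was 3515 to 5544 FPKM at 0 h and 4822 to 8072 at 24 h. Most of this sum came from Sprr1a and Krt17, which passed at no time and stood at 3652 and 1496 FPKM in set 1 at 0 h. Monocyte and macrophage markers were measured for 14 of 21, and 0, 4, 1, 3 and 1 of them fell at the 5 times after UV while none rose. Their median difference was already -1.09 (log2) at 0.5 h, against -0.01 for all genes. Their sum was 312 to 448 FPKM at 0 h and 246 to 486 at 24 h. Fibroblast markers, 10 of 10 measured, fell for 1, 4, 2, 7 and 5 genes at the 5 times after UV, and none rose. Their median difference was already -1.01 (log2) at 0.5 h. Their sum was 2144 to 5298 FPKM at 0 h and 1045 to 1572 at 24 h. Keratinocyte markers, 11 of 11 measured, fell for 0, 1, 1, 2 and 3 genes at the 5 times after UV. Skeletal muscle markers, 12 of 12 measured, gave 0 calls at every time in limma, but 11 of the 12 were higher at 2 and at 6 h, with medians of 0.77 and 0.64 (log2) against -0.06 and -0.02 for all genes. Their sum was 3153 to 5049 FPKM at 0 h, 5608 to 7469 at 2 h and 4835 to 8283 at 6 h. Endothelial markers gave 0 calls at every time, and adipocyte markers gave 1 fall, at 6 h. The part of these cells in the levels of the members, and in the falls of list genes at 2 and 6 h, was not tested.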

How the data were processed

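The authors deposited 1 table of FPKM values for 10980 genes in 14 libraries of total RNA from mouse back skin. TopHat2 2.1.0, Cufflinks 2.2.1 and the build mm10 are named without their order, per the submitters' processing notes, while strandedness, annotation and the choice of listed genes are unstated. Columns were assigned to times by their headers, which carry no replicate number, and 0 columns of other samples were present.

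The 3 library sets were told apart by the number of digits, the headers and, for 1 unirradiated library, its mean correlation (0.964 with set 2, 0.888 with set 3). Libraries of 1 set deviated together from their time means, with r of 0.411 to 0.895 over 28 pairs, against -0.859 to 0.492 over 53 pairs from different sets. At a time with 2 libraries, their deviations from the mean are mirror images, so the negative r between sets follows in part from that. The set entered the model in place of a replicate number. Whole reads were recovered for 10954 genes in sets 2 and 3 (100% of those above 0, relative tolerance 1e-12). They served for depth over the listed genes and for intervals alone, which cover counting error only.

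The test was limma 3.58.1 in R 4.3.3 on log2(FPKM + 1), a scale that understates changes of low genes, with 6 residual degrees of freedom, an intensity trend, two-sided p-values and a threshold of 0.05, and it was tested on simulated data. The members and the gene lists were chosen with earlier results of these data known. Named genes are the members, the 3 most alike to each (mean FPKM of at least 1), up to 4 called genes of largest change per list and time, and, where under 2 were called, the 2 most abundant. Several of these abundant genes passed at no time and are not printed. A few others, such as Il1b, S100a4, Slc22a17, Stat3, Cxcl1 and Cxcl2, were named after their values were seen. Alternatives were other pseudocounts, scalings, a filter, no set term, 2 sets alone and each library left out.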

Additional observations from a re-analysis of the deposited data

How the results depend on the processing

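With no replicate block, that is without the library set as a term (8 residual degrees of freedom, median residual SD 0.335 against 0.155), limma called 0 genes at each of the 5 times and 0 genes of the pathway lists. At 0.5 h, where 11 genes were called, a pseudocount of 5 gave 25, a filter at a mean FPKM of 5 gave 7 and the 2 sets with an unirradiated library gave 2. At 2 h the count of 306 became 128 under median-of-ratios scaling, 186 under quantile normalization, 160 with the filter and 153 with 2 sets, and the list count of 11 became 5, 3, 7 and 4. At 6 h the filter gave 310 genes in place of 474, and 2 sets gave 11 list genes in place of 7. Leaving out 1 library gave 0 to 25, 1 to 558, 2 to 960, 51 to 814 and 54 to 383 genes at 0.5, 2, 6, 12 and 24 h. The highest count came each time without the 6 h library of set 3. The lowest at 0.5 h came without the 0.5 h library of set 1 and also without the 6 h library of set 2. At 2 and 6 h it came without the unirradiated and the 6 h library of set 2 in turn. At 12 and 24 h it came without the 12 h library of set 1 and the 24 h library of set 2 in turn. For list genes these ranges were 0 to 1, 0 to 15, 0 to 13, 1 to 16 and 2 to 13.

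The 4 members' log2 differences at 12 and 24 h stayed above 0 under every alternative and every library left out. As the members were picked with these values known, this describes them and tests nothing. A pseudocount of 5, which compresses low values, took the 24 h differences to 3.82 for S100a9, 2.84 for Lcn2 and 2.96 for Saa3. Among the called list genes that were followed in the other fits, none changed direction. Depth limits the early values of Saa3, Lcn2 and S100a9 most, at 0 to 81 reads per library up to 6 h in sets 2 and 3. The cause of these changes was not tested.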
